A study of Mus musculus with 2 samples.

Results

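Mouse microRNA genes of the Mir99/100, let-7 and Mir125 families lie together in 3 clusters, each with 1 gene of each family in the same order. The 9 loci of these clusters were taken by name from the 1973 loci counted in small RNA libraries of embryonic day 14.5 hindbrain, and all 9 passed the filter on low counts. They are Mir99a, Mirlet7c-1 and Mir125b-2, then Mir100, Mirlet7a-2 and Mir125b-1, then Mir99b, Mirlet7e and Mir125a. The clusters are called here by their first gene.

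The libraries were made from RNA under 30 nucleotides of hindbrain of strain B6NCrl, the embryonic tissue that forms the cerebellum, pons and medulla. There is 1 group with 2 libraries, replicate 2 collected on 30 July 2014 and replicate 1 on 24 July 2014, with no treatment or mutation named. The labels call each sample a single hindbrain in one place and pooled male and female in another, and give both the same donor, so separate animals are not shown. Every SD below therefore measures the spread between these samples, which may be technical, the p-values cover the counting error of 2 libraries unless a dispersion is named, and library and collection day cannot be told apart.

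Replicate 2 held 6667238 counts on the strand of the microRNA loci and replicate 1 held 5826676. Levels are given as CPM, a locus's count divided by this total and multiplied by 1000000. Intervals are 95% Clopper-Pearson intervals that cover counting error only. In such a library 3 counts, the limit that a count of 0 allows, correspond to 0.450 CPM in replicate 2 against 0.515 CPM in replicate 1. Mir10a and Mir10b, taken as markers of the posterior Hox clusters and not of hindbrain alone, summed to 140148 CPM in replicate 2 against 179036 CPM in replicate 1. The neural list of tissue markers had a row for 9 of 10 loci, none of these at 0. It summed to 16761 CPM in replicate 2 against 14835 CPM in replicate 1. Most of this sum came from Mir137, at 10645 CPM in replicate 2 and 9697 CPM in replicate 1. By mean level, Mir124a-1, Mir124a-2, Mir124a-3 and Mir9-2 stood at only 7.75, 3.13, 1.03 and 1.52 CPM. Each was below the mean of 14.7 CPM of liver Mir122. The Mir124a loci are numbered as copies, as is Mir9-2 among the Mir9 loci. Reads that fit several copies may be missing from these levels, which was not tested. The levels therefore need not give the amount of these products in the tissue. Markers of other cells were also present. In replicate 2, Mir126a of endothelium stood at 36687 CPM, both smooth muscle loci at a summed 6930 CPM and the 3 blood loci with a row at a summed 582 CPM. In replicate 1 these levels were 31783, 6596 and 455 CPM. Skeletal and heart muscle loci, 4 of 5 with a row and 2 of these at 0, summed to 16.3 CPM in replicate 2 against 14.9 CPM in replicate 1. Liver Mir122 stood at 15.7 CPM in replicate 2 against 13.7 CPM in replicate 1. In whole tissue, fewer cells of a type and less RNA per cell cannot be told apart.

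A microRNA is cut from a hairpin in a longer transcript and guides the silencing complex to messenger RNAs, mainly through its seed, bases 2 to 8. The let-7 family promotes differentiation and represses Lin28, whose protein in turn blocks the maturation of let-7. The Mir125 family is the mammalian counterpart of lin-4, the worm gene that controls developmental timing and also acts on lin-28, and the Mir99/100 family is known for repressing Mtor and Igf1r. In Drosophila the same 3 families sit in a single cluster whose members come from one transcript.

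The sequences below are the main products, from the 5′ arm of each hairpin (RefSeq, GRCm38.p6, plus strand in every case), 5′ to 3′ with the seed in capitals. They are shown because the families are defined by the seed, and because the letters after it decide which reads can be assigned to a single locus.
miR-99a-5p: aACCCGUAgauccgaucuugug
miR-100-5p: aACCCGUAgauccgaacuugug
miR-99b-5p: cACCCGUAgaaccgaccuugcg
let-7c-5p: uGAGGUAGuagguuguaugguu
let-7a-5p: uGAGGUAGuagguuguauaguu
let-7e-5p: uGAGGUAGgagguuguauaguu
miR-125b-5p: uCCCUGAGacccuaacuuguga
miR-125a-5p: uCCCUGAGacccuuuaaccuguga

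Positions are counted from 1 at the 5′ end. Going from miR-100-5p to miR-99a-5p takes 1 substitution, A16U, and from miR-99a-5p to miR-99b-5p it takes 4, A1C, U11A, U16C and U21C. In the let-7 products, let-7a-5p becomes let-7c-5p by A19G and let-7e-5p by U9G. The Mir125 products share their first 13 bases, have 24 bases in miR-125a-5p and 22 in miR-125b-5p, and differ by an edit distance of 3. All of these substitutions lie outside the seed.

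The same product can come from more than 1 locus. In RefSeq, let-7c-5p stands at Mirlet7c-1 and Mirlet7c-2, let-7a-5p at Mirlet7a-1 and Mirlet7a-2, and miR-125b-5p at Mir125b-1 and Mir125b-2, while the other 5 products each stand at 1 locus. The let-7c and let-7a hairpins match their copies over 23 bases from the start of the product and first differ at base 24, so a read of the 22-base product fits both loci. The tables list reads that mapped to several positions in a row apart from the loci, where they made up 34.3% of the reads of replicate 2 and 33.9% of those of replicate 1. They were taken here as given to no locus, which no named counting program settles. On that reading the counts of Mirlet7c-1, Mirlet7a-2, Mir125b-1 and Mir125b-2 leave out any such reads, and how many per locus cannot be read from the tables. Their 3′ arm products, shown in lower case because they tell these loci apart, each stand at 1 locus.
let-7c-1-3p: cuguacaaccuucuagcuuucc
let-7a-2-3p: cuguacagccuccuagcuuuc
miR-125b-2-3p: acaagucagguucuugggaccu
miR-125b-1-3p: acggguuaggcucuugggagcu

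The tables give 1 count per locus and do not divide it between the arms. All products of the Mir99b cluster stand at 1 locus each, so that cluster is the one in which the 3 positions can be compared without reads lost to copies.

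All 9 hairpins lie on the plus strand (GENCODE, GRCm38). The Mir99a cluster is on chromosome 16, with Mir99a at 77598936 to 77599000, Mirlet7c-1 at 77599657 to 77599750 and Mir125b-2 at 77646273 to 77646343. All 3 lie in introns of the noncoding host gene Mir99ahg, and Mir125b-2 also overlaps an exon of C130023A14Rik. The Mir100 cluster is on chromosome 9, with Mir100 at 41531425 to 41531504, Mirlet7a-2 at 41536716 to 41536811 and Mir125b-1 at 41581926 to 41582002. These 3 lie in introns of the noncoding gene 3110039I08Rik, listed in RefSeq under the synonym Mir100hg. Mir100 also overlaps an exon of Gm48742 on the opposite strand, and Mir125b-1 an exon of Gm28119. The Mir99b cluster is on chromosome 17 within the protein-coding gene Spaca6, with Mir99b at 17830188 to 17830257, Mirlet7e at 17830352 to 17830444 and Mir125a at 17830812 to 17830879. Mir99b and Mirlet7e are intronic there, and Mir125a overlaps an annotated Spaca6 exon.

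The clusters have very different spans. From the first to the last hairpin base, the Mir99a cluster covers 47408 bases, the Mir100 cluster 50578 bases and the Mir99b cluster 692 bases. In the long clusters the Mir125 gene is the distant one, 46522 bases after Mirlet7c-1 and 45114 bases after Mirlet7a-2. The let-7 gene follows Mir99a after 656 bases and Mir100 after 5211 bases, while in the Mir99b cluster the gaps are 94 and 367 bases.

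**Figure D1:**
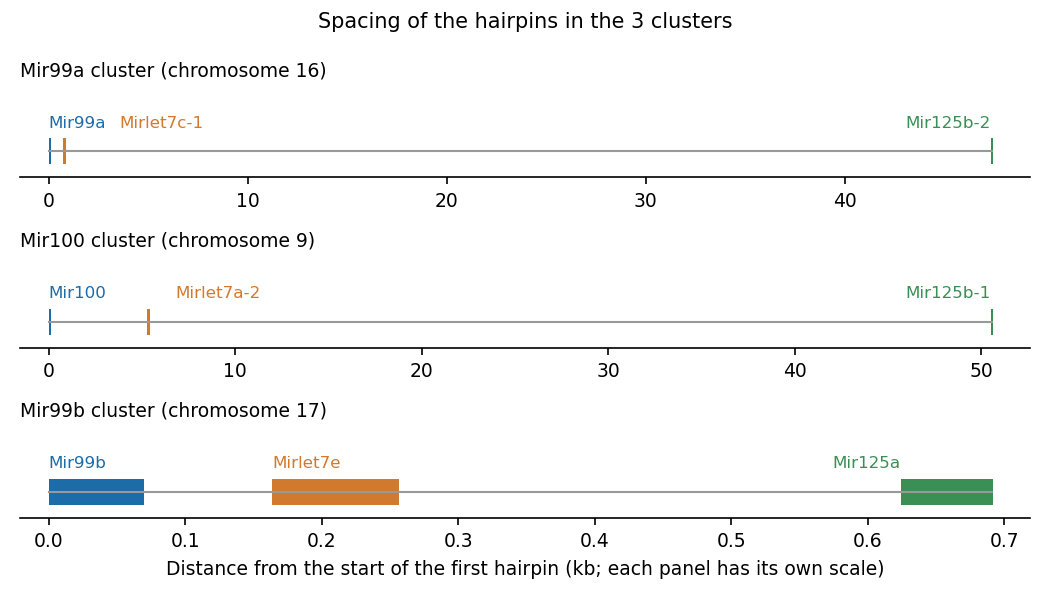
Hairpins of the 3 clusters by distance from the start of the first hairpin in kilobases, with a separate scale in each panel and colour by family. The Mir125 gene stands 46522 and 45114 bases behind the let-7 gene in the 2 long clusters, against 367 bases in the Mir99b cluster.

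Mirlet7e has no row of its own. Its counts stand in the opposite-strand column of Gm25927, an annotated microRNA gene on the minus strand at 17830343 to 17830459 of chromosome 17 that covers the whole Mirlet7e hairpin. Gm25927 had 0 counts on its own strand in both libraries. On the strand opposite to each of the other 8 hairpins the count was also 0 in both libraries.

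The Mir99/100 genes were the most abundant members of their clusters. Mir99a held 1110471 counts in replicate 2 and 899846 in replicate 1, which is 166556 and 154436 CPM, and was the highest of all loci in both libraries. Its mean level was 160496 ± 8571 CPM (SD, n = 2). Mir100 had 226176 counts in replicate 2 and 201329 in replicate 1, or 33924 and 34553 CPM, with a mean of 34238 ± 445 CPM (SD, n = 2). It ranked 7 in replicate 2 and 5 in replicate 1. Mir99b, the paralog with 4 substitutions, had 137354 counts in replicate 2 and 117901 in replicate 1, or 20601 and 20235 CPM, with a mean of 20418 ± 259 CPM (SD, n = 2). Its rank was 12 in both libraries. Mir99a thus exceeded Mir100 by 4.91-fold in replicate 2 and 4.47-fold in replicate 1, and Mir100 exceeded Mir99b by 1.65-fold and 1.71-fold.

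The Mir125 genes came next. Mir125a, at the end of the short cluster, had 59592 counts in replicate 2 and 48770 in replicate 1, or 8938 and 8370 CPM, with a mean of 8654 ± 402 CPM (SD, n = 2). Mir125b-1 had 14018 counts in replicate 2 and 12087 in replicate 1, or 2103 and 2074 CPM. Its twin Mir125b-2, which encodes the same 5′ product, had 14274 counts in replicate 2 and 11827 in replicate 1, or 2141 and 2030 CPM. The log2 ratio of Mir125b-2 over Mir125b-1 was 0.03 in replicate 2 (interval -0.01 to 0.06) and -0.03 in replicate 1 (interval -0.07 to 0.01). Within either library, the 2 loci on different chromosomes were therefore not told apart by the counts that can be assigned to them. Their log2 ratio changed by 0.06 in replicate 2 over replicate 1, with a counting interval of 0.01 to 0.11.

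The let-7 genes were the lowest members of all 3 clusters. Mirlet7e had 28422 counts in replicate 2 and 23760 in replicate 1, or 4263 and 4078 CPM, with a mean of 4170 ± 131 CPM (SD, n = 2). Mirlet7c-1 had 2779 counts in replicate 2 and 2118 in replicate 1, or 417 and 364 CPM. Mirlet7a-2, the lowest of the 9, had 1401 counts in replicate 2 and 1017 in replicate 1, or 210.1 and 174.5 CPM, and ranked 174 and 182. By mean level the 9 loci ran from Mir99a through Mir100, Mir99b, Mir125a, Mirlet7e, Mir125b-1, Mir125b-2 and Mirlet7c-1 to Mirlet7a-2. The 2 libraries' values of neighbours in this order overlapped for Mir125b-1 and Mir125b-2 alone. The 4 lowest places belong to the 4 loci whose 5′ product stands at 2 loci. The part of the unassigned reads in this order was not tested.

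**Figure D2:**
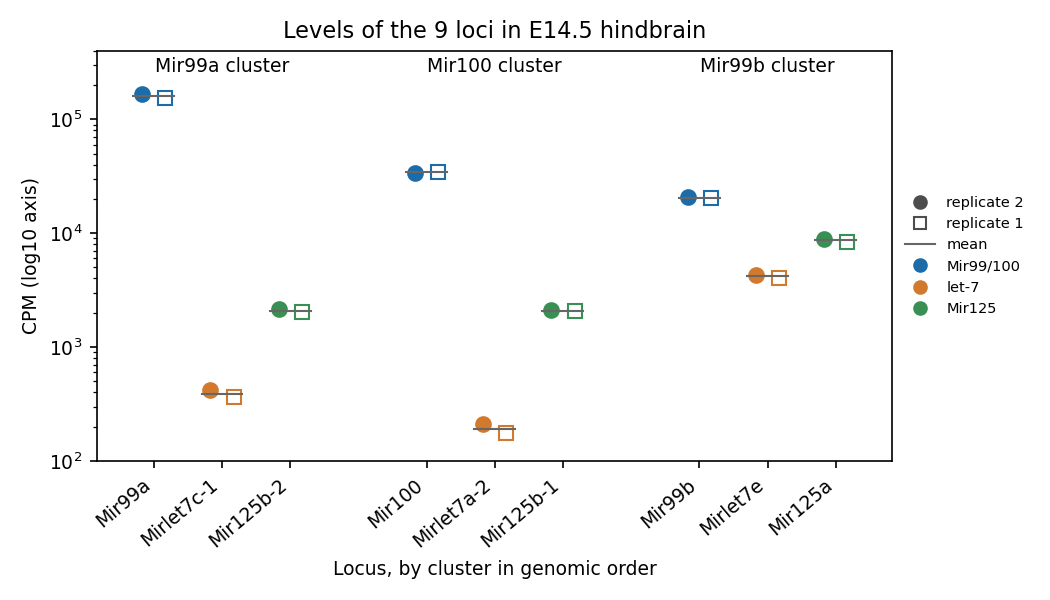
CPM of the 9 loci on a log10 axis, replicate 2 as filled circles and replicate 1 as open squares, with the mean as a line and colour by family. Within each cluster the Mir99/100 gene is highest, the let-7 gene lowest and the Mir125 gene between them, in both libraries.

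Set against the gene-strand total, the counts of the 9 loci came to 23.9% in replicate 2 and 22.6% in replicate 1, a mean of 23.3% ± 0.908 (SD, n = 2). That total leaves out the opposite-strand column, from which Mirlet7e was read and which held 2.21% of the counts of both strands in replicate 2 and 1.99% in replicate 1. Percentages that include Mirlet7e are thus ratios to a total that does not contain it, and their intervals are approximate. With the opposite-strand counts added to the total, the mean of the let-7 position was 0.465% instead of 0.475%, and that of the Mir99b cluster 3.25% instead of 3.32%. Most of the counts of the 9 loci came from the Mir99a cluster, which held 16.9% in replicate 2 (interval 16.88 to 16.94) and 15.7% in replicate 1 (15.65 to 15.71). The Mir100 cluster held 3.62% (3.61 to 3.64) in replicate 2 and 3.68% (3.66 to 3.70) in replicate 1, and the Mir99b cluster 3.38% (3.37 to 3.39) and 3.27% (3.25 to 3.28). Summed over clusters and set against the same total, the Mir99/100 position came to 22.1% in replicate 2 and 20.9% in replicate 1, the Mir125 position 1.32% and 1.25%, and the let-7 position 0.489% and 0.462%. Of all 1973 loci, 4 of the 9 stood among the top 20 by mean level, namely Mir99a, Mir100, Mir99b and Mir125a.

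The members of one cluster were far from equal, although the annotation places each cluster in a single host gene. In the Mir99a cluster, Mir99a made up 98.5% of the counts in both libraries, and stood over Mirlet7c-1 by 399.6-fold in replicate 2 and 424.9-fold in replicate 1. Over Mir125b-2 it stood 77.8-fold higher in replicate 2 and 76.1-fold higher in replicate 1. In the Mir100 cluster, Mir100 made up 93.6% in replicate 2 and 93.9% in replicate 1. It exceeded Mirlet7a-2 by 161-fold in replicate 2 and 198-fold in replicate 1, and Mir125b-1 by 16.1-fold and 16.7-fold. The Mir99b cluster was the most even of the 3. Mir99b made up 60.9% in replicate 2 and 61.9% in replicate 1, Mir125a 26.4% and 25.6%, and Mirlet7e 12.6% and 12.5%. Mir99b exceeded Mirlet7e by 4.83-fold in replicate 2 and 4.96-fold in replicate 1, and Mir125a by 2.30-fold and 2.42-fold.

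These ratios need no scaling between libraries but carry the capture and ligation preferences of small RNA libraries, which were not measured here, besides any reads lost to copies in the long clusters. Unequal members are also found in other microRNA clusters of the same tables. The highest locus of the Mir17-92 cluster, Mir17, exceeded the lowest, Mir19b-1, by 1900-fold in replicate 2 and 2162-fold in replicate 1 over 6 loci. In the 3-gene Mir106b-25 cluster the range was 19.0-fold in replicate 2 and 18.0-fold in replicate 1, and in the 3-gene Mir183 cluster 3.30-fold and 4.56-fold. The Mir99b cluster thus lay near the Mir183 cluster and the 2 long clusters lay between Mir106b-25 and Mir17-92, given here as values without a test. The Mir17-92 range rests on a locus with 46 counts in replicate 2 and 42 in replicate 1. Reads lost to copies were not examined for these other clusters, so their ranges may carry the same limit.

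The balance between the clusters differed by family. At the Mir99/100 position the Mir99a cluster supplied 75.3% of the counts in replicate 2 and 73.8% in replicate 1, the Mir100 cluster 15.3% and 16.5%, and the Mir99b cluster 9.32% and 9.67%. At the other positions the Mir99b cluster led, with Mirlet7e at 87.2% of the 3 let-7 loci in replicate 2 and 88.3% in replicate 1. Mir125a held 67.8% of the 3 Mir125 loci in replicate 2 and 67.1% in replicate 1. In both these families the leader is the one with a product of its own, so its share can be too high by any reads that its relatives lost.

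**Figure D3:**
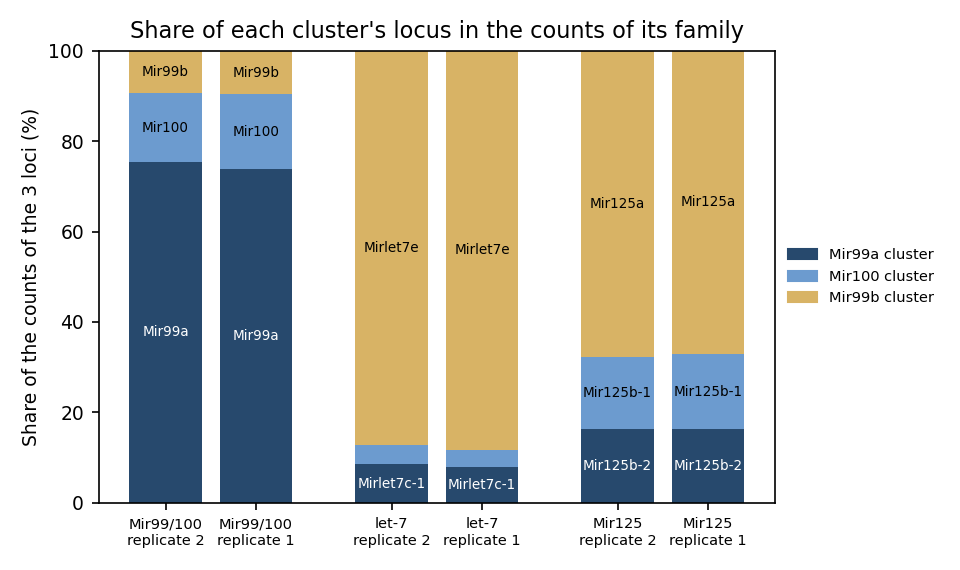
Share of each cluster in the counts of the 3 loci of a family, in percent, replicate 2 left of replicate 1 within each family. The Mir99a cluster gives 75.3% and 73.8% of the Mir99/100 counts, and the Mir99b cluster 87.2% and 88.3% of the let-7 counts and 67.8% and 67.1% of the Mir125 counts.

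The let-7 seed is also carried by 9 other let-7 loci outside these clusters, and by Mir1961 and Mir7k, which had 0 counts in both libraries. The 3 cluster members supplied 4.36% of the counts of all 12 let-7 loci in replicate 2 (interval 4.31 to 4.40) and 4.77% in replicate 1 (4.71 to 4.82), most of it Mirlet7e. Mirlet7g, at 50820 CPM in replicate 2 against 44048 CPM in replicate 1, and Mirlet7i, at 38150 and 32777 CPM, held most of the let-7 counts. Mirlet7e stood after Mirlet7g, Mirlet7i, Mirlet7b and Mirlet7d by mean level. It was below Mirlet7b with 5782 CPM in replicate 2 against 5426 CPM in replicate 1, and above Mir98 with 3730 and 3037 CPM. On the reading above, Mirlet7c-1, Mirlet7a-2 and their copies Mirlet7c-2 and Mirlet7a-1 leave out any reads that fit both loci. The shares and the order given here therefore cover assigned reads only, and need not give the make-up of let-7 in the tissue. Mirlet7f-1 and Mirlet7f-2 are by name copies of each other as well. Whether these or other let-7 loci outside the clusters share products was not examined. In assigned counts, the copies of the cluster members were of the same order as the members. Mirlet7c-2 had 756 CPM in replicate 2 against 599 CPM in replicate 1, and Mirlet7a-1 had 251 and 202 CPM. The lowest, Mirlet7f-1, read like Mirlet7e from the opposite strand of an overlapping locus, Gm24111, had 77.4 CPM in replicate 2 against 56.6 CPM in replicate 1.

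**Figure D4:**
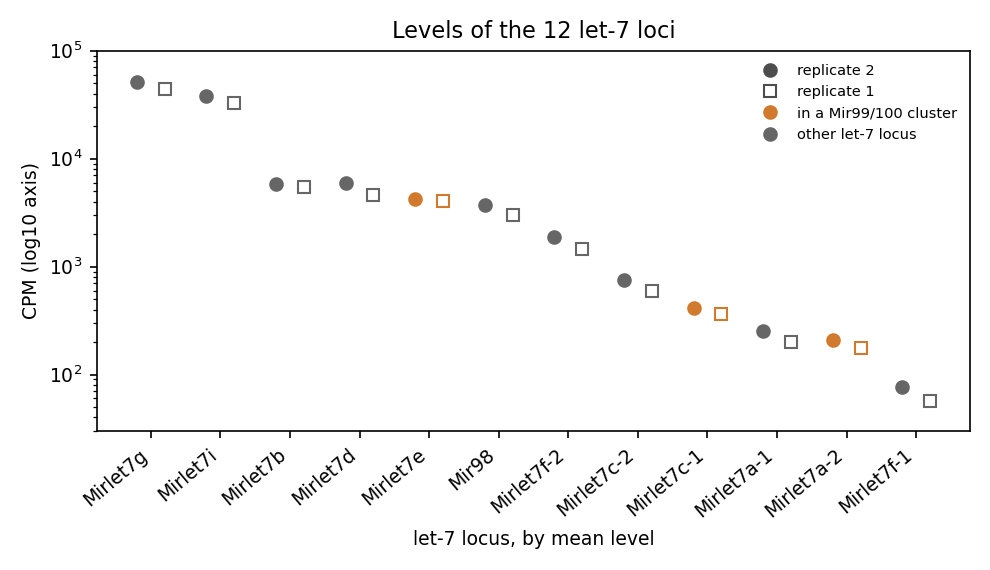
CPM of the 12 let-7 loci on a log10 axis, ordered by mean level, replicate 2 as filled circles left of replicate 1 as open squares, with the 3 cluster members in orange. Mirlet7e follows Mirlet7d at 4263 and 4078 CPM, and Mirlet7a-2 at 210.1 and 174.5 CPM stands above Mirlet7f-1 alone. Reads that fit several positions are taken as left out, so the order is that of assigned reads.

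For the Mir125 seed, Mir351 was the other locus with counts, at 552 CPM in replicate 2 against 499.6 CPM in replicate 1, while Mir6367 and Mir6394 had 0 counts in both libraries. No other locus in the RefSeq table carried the Mir99/100 seed. Close relatives are miR-10a-5p and miR-10b-5p, whose sequences lie 3 to 6 edits from the Mir99/100 products. Their loci, Mir10a and Mir10b, held 14.0% of counts in replicate 2 and 17.9% in replicate 1, against 22.1% and 20.9% for the 3 Mir99/100 loci.

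Replicate 2 and replicate 1 were compared locus by locus by an exact, two-sided binomial test, in which TMM-scaled library sizes set the share to be reached without a difference. Benjamini-Hochberg adjustment at 0.05 ran over the 499 loci whose counts summed to 10 or more. The test compares the reads of 2 libraries, not conditions, and covers counting error alone. It called 6 of the 9 loci, 4 higher and 2 lower in replicate 2, where it called 32.5% of all loci tested, 17.4% higher and 15.0% lower. Such calls depend on depth. Of the 182 loci that reached 1000 counts in both libraries, to which all 9 belong, 69.2% were called, close to the 66.7% of the 9. With edgeR's exact test and a common dispersion, which adds a coefficient of variation of 10.8% estimated from the same libraries, 0 of the 9 were called and 0 had an unadjusted p under 0.05. That test called 1.40% of the 499 loci.

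The differences called were small. The largest log2 ratio of replicate 2 over replicate 1 was 0.22 for Mirlet7a-2 (interval 0.11 to 0.34, adjusted p = 0.000672, exact binomial test), followed by 0.15 for Mirlet7c-1 (0.07 to 0.24, adjusted p = 0.000841, exact binomial test). Mir99a was higher by 0.07 (0.06 to 0.07, adjusted p = 3.52e-226, exact binomial test) and Mir125a by 0.05 (0.03 to 0.07, adjusted p = 2.99e-08, exact binomial test). Mir100 was lower, at -0.07 (-0.08 to -0.06, adjusted p = 1.11e-54, exact binomial test). Mir99b stood at -0.02 (-0.03 to -0.01, adjusted p = 0.0096, exact binomial test). When the libraries were scaled by their totals, Mir99b turned to 0.026 and was called higher in replicate 2 (adjusted p = 2.64e-05, exact binomial test).

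Differences of the other 3 were not called by the binomial test with TMM scaling. Mir125b-2 stood at 0.03 (-0.00 to 0.07), Mirlet7e at 0.02 (-0.00 to 0.05) and Mir125b-1 at -0.02 (-0.06 to 0.01). Mirlet7e was -0.0028 with upper quartile scaling and Mir125b-1 was 0.019 with library totals. Each of the 3 was called under another scaling. With library totals, Mir125b-2 and Mirlet7e were called higher in replicate 2 (adjusted p = 7.59e-05 and 2.32e-06, exact binomial test). With the upper quartile, Mir125b-1 was called lower (adjusted p = 0.0266, exact binomial test). The median over the 9 loci was 0.03, against 0.01 over all 499 loci tested. The SD of the log2 ratio over the 182 loci with at least 1000 counts was 0.21, so the whole range of the 9, from -0.07 to 0.22, lay within about 1 such SD of 0.

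**Figure D5:**
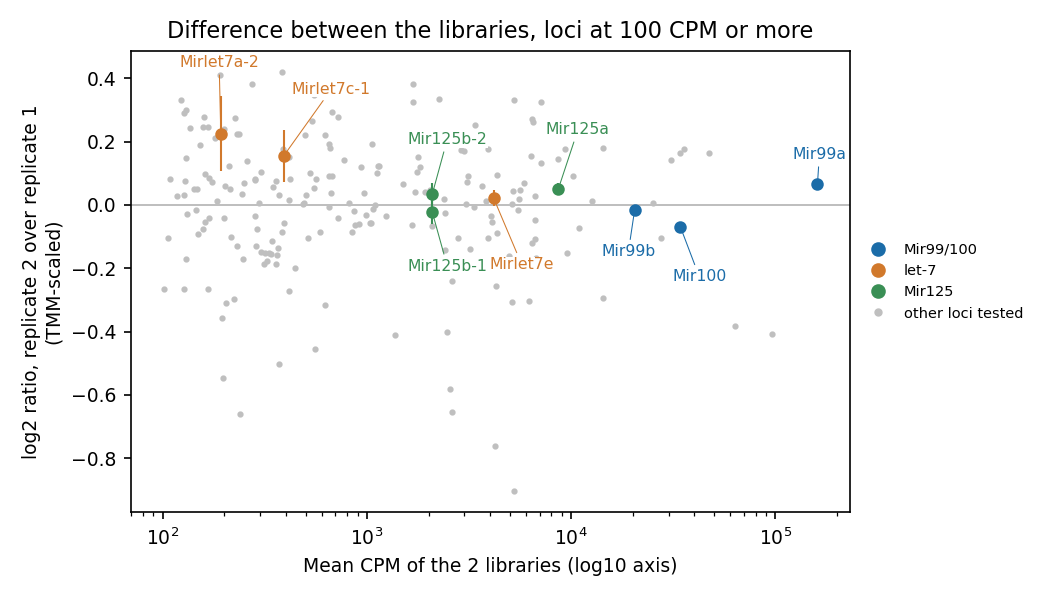
TMM-scaled log2 ratio of replicate 2 over replicate 1 against mean CPM on a log10 axis, for the 212 tested loci with a mean of at least 100 CPM, with the 9 loci in colour and their 95% counting intervals. The 9 lie between -0.07 and 0.22, within the vertical range of the grey points.

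The let-7 loci outside the clusters were also compared. All 8 of them that were tested were higher in replicate 2 by the binomial test, with a median log2 ratio of 0.26. Over all loci 17.4% were called higher, and 35.2% of those that reached 1000 counts in both libraries. The exact test with edgeR's common dispersion called 0 of the 8, with unadjusted p from 0.133 to 0.826. The ninth, Mirlet7f-1, was not among the loci tested. The log2 ratio was above 0 for all 9 under each of 4 scalings of the libraries and both other count filters. Mirlet7e, at 0.02, was below the lowest of the 9, Mirlet7b at 0.05. The summed log2 ratio was 0.18 for the other let-7 loci and 0.04 for the 3 cluster members (interval 0.02 to 0.06).

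Because Mir99a and Mir100 moved in opposite directions, the totals of the clusters did too. The Mir99a cluster had a log2 ratio of 0.07 and the Mir100 cluster one of -0.07, while the Mir99b cluster stood at 0.01 with an interval of -0.00 to 0.01. The ratio of Mir99a to Mir100, which no scaling touches, changed by 0.14 on the log2 scale (interval 0.13 to 0.15) in replicate 2 over replicate 1.

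The ratio of 2 members of the same cluster can be compared between the libraries without scaling. Fisher's exact test with Benjamini-Hochberg adjustment over the 9 pairs called 7, and 12 of 21 pairs in the Mir17-92, Mir106b-25 and Mir183 clusters, which is 57.1%. The pairs of a cluster share loci and are not independent. These calls depend on depth too, and the 2 sets of pairs are not matched for it. The comparison pairs include Mir19a, with 288 counts in replicate 2 and 230 in replicate 1, and Mir19b-1, with 46 and 42. The lowest count of a member was 1017. Mir100 over Mirlet7a-2 changed most, by -0.29 on the log2 scale (adjusted p = 3.38e-06, Fisher's exact test). In all 3 clusters the ratio of the Mir99/100 gene to the let-7 gene was lower in replicate 2, at -0.09 for Mir99a over Mirlet7c-1 (adjusted p = 0.0443, Fisher's exact test) and -0.04 for Mir99b over Mirlet7e (adjusted p = 0.0139, Fisher's exact test). Mir99b over Mir125a was lower by -0.07 (adjusted p = 5.21e-10, Fisher's exact test) and Mir100 over Mir125b-1 by -0.05 (adjusted p = 0.0195, Fisher's exact test).

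Ratios of the let-7 to the Mir125 gene did not move alike. Mirlet7a-2 over Mir125b-1 was higher in replicate 2 by 0.25 (adjusted p = 0.000182, Fisher's exact test) and Mirlet7c-1 over Mir125b-2 by 0.12 (adjusted p = 0.014, Fisher's exact test). Mirlet7e over Mir125a stood at -0.03 and Mir99a over Mir125b-2 at 0.03, neither called (adjusted p = 0.0536 and 0.0763, Fisher's exact test). The sizes over the 9 pairs ran from 0.03 to 0.29 with a median of 0.07, and over the 21 comparison pairs from 0.01 to 0.47 with a median of 0.20.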

How the data were processed

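Raw counts of reads per microRNA locus, for both strands and for each strand, were deposited by the authors; the build is mm10 and the annotation GENCODE M4, per the file lists deposited with the tables. Aligner and counter: not given in the sources used here. The 4 rows that name no locus held 15.9% unmapped, 34.3% multimapping and other reads of 14348369 in replicate 2, and 13.8% and 33.9% of 11804816 in replicate 1, and were left out of library sizes. Symbols and positions came from GENCODE M21 (GRCm38), which matched 1894 of 1973 loci.

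CPM came from gene-strand counts, and log2 ratios added 0.5 to each count. TMM factors were 1.02 for replicate 2 and 0.985 for replicate 1. Intervals of changes in a ratio are Wald intervals on log counts. With 1 group of 2 there are no residual degrees of freedom for a quasi-likelihood test, so exact tests were used. The binomial test was tested on simulated data that held counting error only. That simulation does not bear on spread between the libraries beyond counting error. Members, lists and tests were chosen with earlier results of these data known; the text names the 9 loci, the other let-7 loci, Mir10a, Mir10b, the comparison clusters and the marker lists. Mir351, Mir6367 and Mir6394 were found by their seed. Alternatives changed the denominator, strand, scaling, count filter, pseudocount and test. TMM and the dispersion came from edgeR 4.0.16 in R 4.3.3, alternative size factors from DESeq2 1.42.0, exact tests from scipy 1.17.1 with pandas 2.3.3 under Python 3.11.15, and plots from matplotlib 3.10.9.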

Additional observations from a re-analysis of the deposited data

Results flagged for a closer look

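Mirlet7b had 15 counts in replicate 2 and 10 counts in replicate 1 on the strand opposite to its hairpin, a column that entered no comparison for this locus, and both are above the 3 counts that a count of 0 allows.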

How the results depend on the processing

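With all mapped reads as the denominator, the Mir99a, Mir100 and Mir99b clusters held 9.16%, 2.05% and 1.87% of reads, and the Mir99/100, let-7 and Mir125 positions 12.1%, 0.267% and 0.721%. The Mir100 cluster held 3.58% with counts of both strands and also with opposite-strand counts added to the total. Counts of both strands could not alter ratios within clusters, because the members had 0 counts on the other strand. Scaling by library totals moved the median of all loci to 0.05 and called 7 members higher and 1 lower in replicate 2. With no count filter 1 member was lower, Mir99b at -0.01 no longer being called. The common-dispersion test called 0 in either direction, 0 higher and 0 lower. Directions reversed for Mir125b-1 (0.019) and Mir99b (0.026) with library totals, and for Mirlet7e (-0.0028) with the upper quartile, where only the scaling differed. Calls over all loci were 115 higher and 59 lower with library totals, against 87 and 75 with TMM. No paired analysis was possible because there is 1 group. Leaving out 1 library leaves no comparison, and its levels are those given per library. The lowest count of a member was 1017, for Mirlet7a-2 in replicate 1, and the interval of its log2 ratio between the libraries is the widest of the 9.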
